A study of Mus musculus with 12 samples.

Results

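The genes described here encode the machinery that imports proteins into mitochondria, measured in mouse small intestine. They were chosen by symbol, as all genes named Tomm or Timm with a number plus the motor genes Hspa9, Grpel1, Pam16 and Dnajc19, the peptidase genes Pmpca and Pmpcb, the chaperonin genes Hspd1 and Hspe1, the outer membrane genes Samm50, Mtx1 and Mtx2, and Chchd4. This gave 36 of the 19937 genes on the array that a probe set assigned to 1 symbol represented. Gene expression was measured on Affymetrix whole-transcript arrays in wild-type male FVB mice, labelled as 8 weeks of age, with 1 array per sample. The control group (n = 6) received a high-fat control diet, and the low P/S group (n = 6) a diet poor in polyunsaturated relative to saturated fatty acids (P/S is their ratio), each for 8 weeks. The samples are called biological replicates in the design text. The labels do not say whether the age refers to the start or the end of the diet. No gut segment, time of dissection, time of last meal or hybridization batch is given in the labels.

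Mitochondria make few of their own proteins, and nearly all others are imported from the cytosol through a set of translocases. The TOM complex of the outer membrane receives the precursors, the TIM23 complex and its motor pull those with a presequence into the matrix, and the TIM22 complex inserts carrier proteins into the inner membrane. In the absorptive cells of the intestine mitochondria supply the energy for uptake and burn part of the absorbed fat.

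Array medians of the deposited intensity ran from 91.9 to 99.5, and no pair of arrays held identical values. Enterocyte markers were bright, as for the fatty acid binding protein gene Fabp1, whose geometric mean was 8596 in control and 9959 in low P/S animals. Several marker lists differed between the diets. Among all genes tested, 17.8% were higher and 7.87% lower at an adjusted p under 0.05 from limma. Of 11 tested proliferation markers 7 rose, and their summed intensity ranged from 2820 to 4380 on control and from 4118 to 5453 on low P/S arrays. Of 6 tested macrophage and dendritic cell markers 5 rose, with sums of 888 to 1035 and of 1099 to 1422. Of 6 fibroblast markers 4 rose (sums of 1961 to 2648 and of 2217 to 3226), of 3 tested B and plasma cell markers 2 rose, and of 3 tested T cell markers 2 fell. Of 10 enterocyte markers 4 fell and 1, Fabp1, rose, with sums of 71278 to 95076 and of 63702 to 75985. The 4 that fell were Lct (0.52-fold), Anpep (0.65-fold), Sis (0.78-fold) and Vil1 (0.81-fold). Of 6 tested enteroendocrine markers 3 rose (sums of 1841 to 2508 and of 2266 to 2906), and of 6 goblet cell markers 2 rose (15113 to 21664 and 20417 to 24510). Of 6 endothelial markers 1 rose (16.7%, near the share of all genes), and of 6 Paneth cell markers 0 passed. Of the 8 smooth muscle markers none passed, with sums of 6946 to 10154 and of 5538 to 8154. None of 5 tested crypt stem cell markers passed, nor any tested marker of pancreas, adipose tissue, enteric neurons and glia or erythrocytes. The part of these shifts in the import genes was not tested, and in whole tissue a change in the number of cells of a type cannot be told apart from a change in RNA per cell.

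The low P/S diet went with more transcript of most of the import machinery, from the outer membrane channel to the matrix chaperonin. Of the 36 genes, 34 were bright enough to be tested, and 26 of them (76.5%) rose and 0 fell, each by between 1.12-fold and 1.39-fold. Among all 11962 genes tested, 17.8% were higher and 7.87% lower at the same threshold, a Benjamini-Hochberg adjusted p under 0.05 from limma. All 34 import genes, and 55.8% of all genes tested, had a positive difference. The median difference was 0.26 on the log2 scale for the import genes and 0.022 for all genes. Differences are low P/S minus control in log2 intensity, and ± is the standard error from limma.

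Every tested import gene exceeded the brightness limit of 85.6 on the control diet alone, the dimmest with a geometric mean of 152. All 34 also lay above the 60th percentile of brightness, and with that stricter filter 24.9% of all genes tested were higher. In 11 of the 34 import genes (32.4%) every low P/S array lay above every control array, which held for 6.86% of all genes tested. Complete separation the other way round was seen in 0 import genes and in 3.9% of all genes. With quantile normalization 24 import genes were higher and 0 lower, and the median difference of the 34 was 0.19 instead of 0.26. The balance over all genes moved more, from 2132 higher and 942 lower to 1773 higher and 1543 lower.

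**Figure D1:**
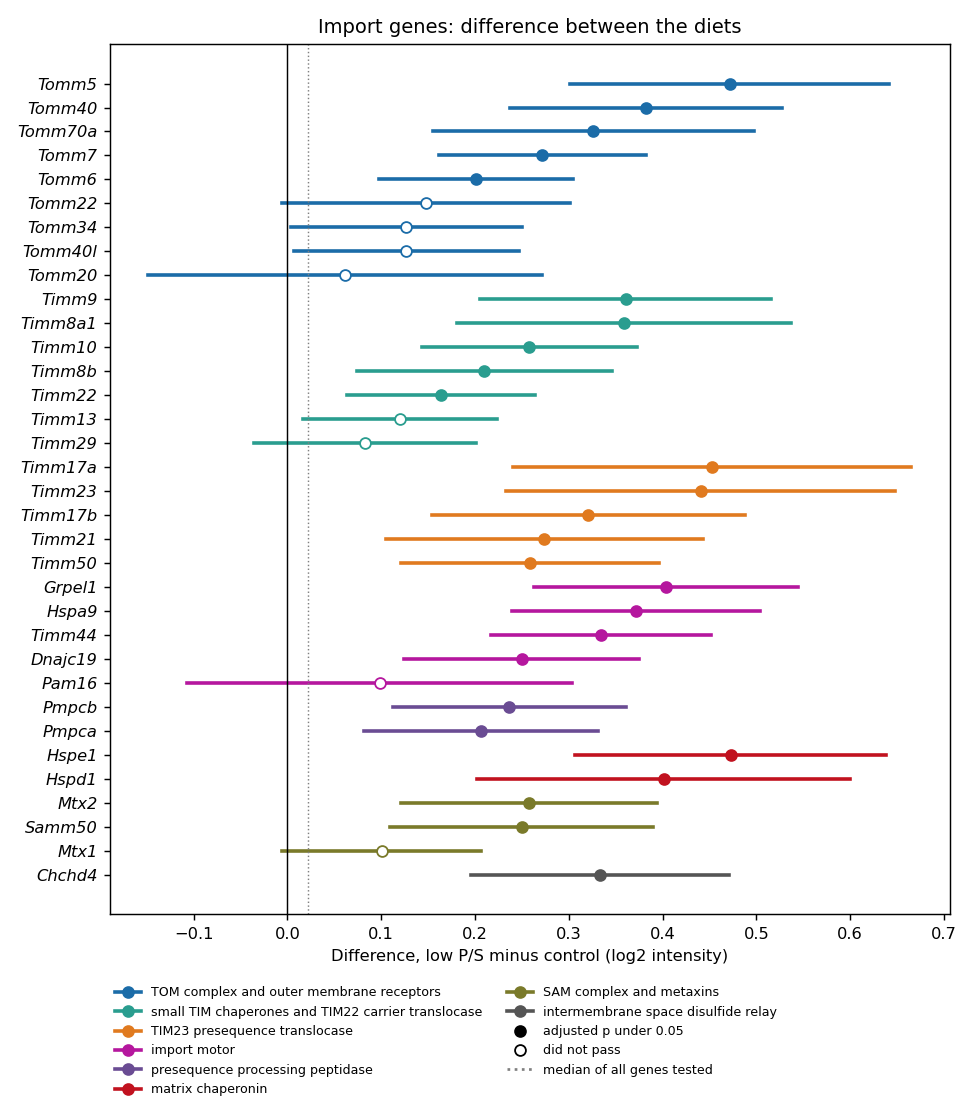
Difference between the diets for the 34 tested import genes, grouped by role, in log2 intensity (low P/S minus control, n = 6 arrays per diet). Points are estimates and bars 95% intervals from limma, filled points passed an adjusted p under 0.05, and the dotted line is the median of all genes tested (0.022). All points lie to the right of 0, and Tomm20 and Pam16 have the widest intervals that cross it among those that did not pass.

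The upstream sequences of these genes are shown for the 4 stretches that illustrate what the members share and where they differ. Of the 36 genes 32 matched an entry of the RefSeq promoter table (GRCm38.p6), of which the 250 bases before the transcript start were searched on both strands. The motifs were those of ETS factors such as GABPA (CCGGAAG), NFY (CCAAT), the E-box (CACGTG), NRF1 (GCGCATGCG), the core of the heat shock element (GAANNTTC), the cyclic AMP response element (TGACGTCA) and the ATF4 composite site (TGATGCAA). In the sequences, which read 5′ to 3′ on the named strand, capitals mark every match to any of these, in either orientation. The first stretch lies between the start sites of Hspd1 and Hspe1, which are transcribed away from each other, and the others are the 250 bases before the start.
Hspd1 to Hspe1 (chr1:55087933-55088147, plus strand): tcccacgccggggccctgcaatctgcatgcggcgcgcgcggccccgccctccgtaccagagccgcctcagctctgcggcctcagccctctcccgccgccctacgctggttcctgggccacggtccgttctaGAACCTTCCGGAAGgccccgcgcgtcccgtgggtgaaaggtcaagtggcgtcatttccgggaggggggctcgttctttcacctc
Grpel1 (chr5:36464935-36465184, plus strand): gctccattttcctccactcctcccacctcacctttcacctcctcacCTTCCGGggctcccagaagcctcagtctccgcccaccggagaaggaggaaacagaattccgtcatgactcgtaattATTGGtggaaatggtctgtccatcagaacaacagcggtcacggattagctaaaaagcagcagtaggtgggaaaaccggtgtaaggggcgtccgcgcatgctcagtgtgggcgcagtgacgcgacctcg
Timm23 (chr14:32201892-32202141, minus strand): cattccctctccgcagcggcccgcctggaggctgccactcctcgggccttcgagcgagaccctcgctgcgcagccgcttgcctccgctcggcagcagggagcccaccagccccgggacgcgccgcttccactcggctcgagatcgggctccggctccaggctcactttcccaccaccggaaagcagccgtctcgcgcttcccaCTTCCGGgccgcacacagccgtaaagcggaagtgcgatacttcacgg
Tomm40 (chr7:19715430-19715679, minus strand): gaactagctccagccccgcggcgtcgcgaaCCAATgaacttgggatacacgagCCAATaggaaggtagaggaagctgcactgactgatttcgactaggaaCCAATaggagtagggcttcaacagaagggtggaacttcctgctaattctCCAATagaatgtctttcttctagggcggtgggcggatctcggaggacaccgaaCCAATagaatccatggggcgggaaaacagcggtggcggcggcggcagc

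The ETS letters were present upstream of 15 of the 32 genes (46.9%), against 14.9% of tested genes with an entry and 7.83% of all genes with one. The 15 include Hspd1 and Hspe1, which share the same letters, and Timm8a2, which was too dim to be tested. Mtx1, Timm29, Tomm22 and Tomm34, which did not pass, also have these letters. Of the sequences shown, the ETS letters stand in the Hspd1 to Hspe1 stretch, Grpel1 and Timm23. In the Hspd1 to Hspe1 stretch, which is 215 bases long, they overlap a heat shock core in the single block of capitals. Heat shock letters were found for 3 of the 32 genes (9.38%) and 5.97% of tested genes. Tomm40, which encodes the channel, had no ETS letters but 5 copies of CCAAT, which 10 of the 32 genes (31.2%) and 39.7% of tested genes held. The NRF1 letters were found upstream of 1 member, Timm13 (3.12%, against 3.28% of tested genes), and E-box letters upstream of 5 (15.6%, against 9.92% of tested genes). The cyclic AMP and ATF4 letters were found upstream of 0 of the 32 genes, against 2.98% and 0.66% of tested genes. These matches describe letters and not binding, and windows of 250 bases leave out more distant elements.

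Outer membrane receptors and channel split into genes that rose and genes that did not pass. Of 9 tested genes 5 rose and 4 did not pass, and Tomm20l was too dim. Tomm40 (probe set 10560630), the pore through which precursors cross, had a lowest, median and highest intensity of 260, 300 and 342 on control arrays. On low P/S arrays these were 358, 389 and 447, so the groups did not overlap. The rise was 1.30-fold (0.38 ± 0.068, adjusted p = 0.000979). Tomm5 (probe set 10512701), a small subunit of the complex, ranged from 234 to 275 with a median of 246 on control arrays and from 293 to 444 with a median of 338 on low P/S arrays. It rose 1.39-fold (0.47 ± 0.080, adjusted p = 0.000687), and low P/S array 4 was the highest.

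The small subunit gene Tomm7 rose 1.21-fold, from a range of 379 to 435 to one of 459 to 526, again without overlap. Tomm6, another small subunit, rose 1.15-fold, with 5 of 6 low P/S arrays above every control array. Tomm70a, the receptor that binds carrier precursors together with cytosolic chaperones, rose 1.25-fold (0.33 ± 0.081, adjusted p = 0.00799). Its lowest low P/S array had 1110 and its highest control array 1153, and 4 low P/S arrays lay above all control arrays.

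Tomm20 (probe set 10477370), the receptor for presequences, did not pass. Its intensity ranged from 576 to 753 with a median of 662 on control and from 549 to 883 with a median of 686 on low P/S arrays, so that the groups overlapped almost entirely. Its difference of 0.0615 ± 0.099 had a 95% interval of -0.15 to 0.27 (limma adjusted p = 0.684). Another Tomm20 probe set, of like brightness, gave 0.12 ± 0.060 (adjusted p = 0.157 in a fit of all probe sets). Tomm22, which anchors the receptors to the channel, differed by 0.15 (95% interval -0.0062 to 0.30, adjusted p = 0.147). The channel relative Tomm40l and the cytosolic cochaperone gene Tomm34 both differed by 0.13 (adjusted p = 0.111 and 0.122). Tomm22 passed when control array 5 was left out (adjusted p = 0.0294), as did Tomm40l when low P/S array 6 was (0.0445). Whether the receptor genes differ from the channel genes in their response was not tested.

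**Figure D2:**
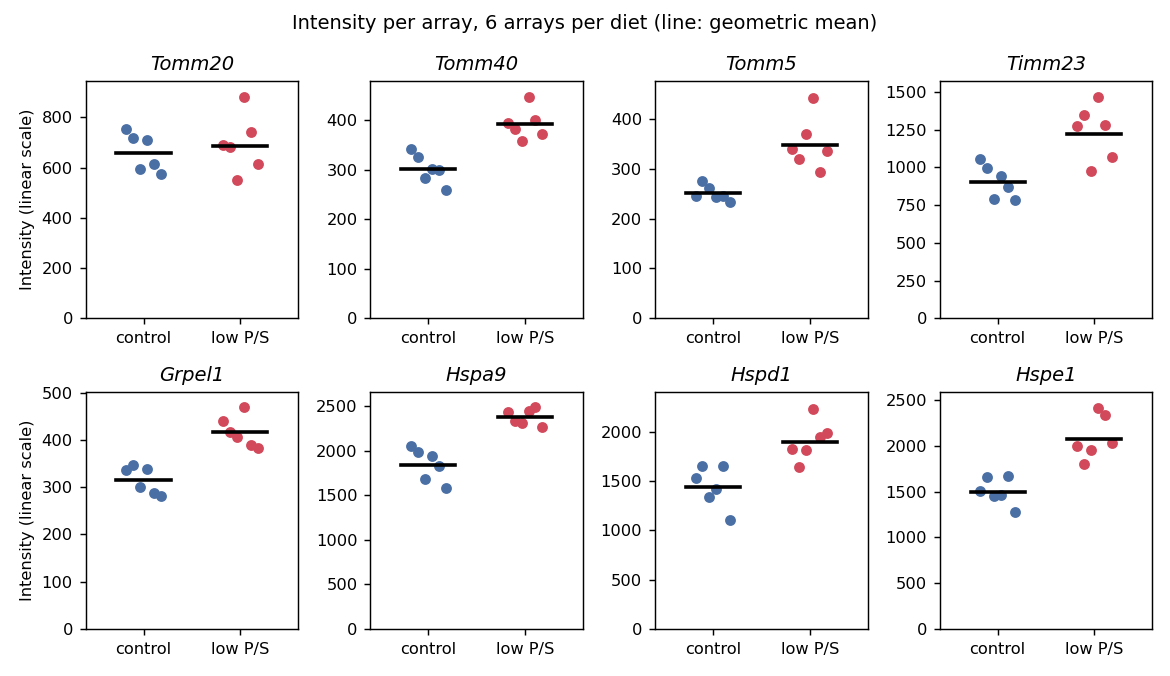
Intensity on a linear scale for 8 import genes, with 1 point per array, 6 arrays per diet and a line at the geometric mean. The diets do not overlap for Tomm40, Tomm5, Grpel1, Hspa9 and Hspe1, overlap slightly for Timm23 and Hspd1, and overlap widely for Tomm20.

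Between the membranes, the small TIM proteins escort hydrophobic precursors and hand carriers to TIM22. Of 7 tested genes of this group 5 rose and 2 did not pass. Timm9 and Timm10, whose products form 1 chaperone ring, rose 1.28-fold and 1.20-fold, each without overlap between the diets. Timm9 (probe set 10400883) went from a range of 127 to 167 to one of 173 to 221 (0.36 ± 0.073, adjusted p = 0.00234). Timm10 ranged from 148 to 173 on control and from 179 to 202 on low P/S arrays. Timm8a1, whose human relative is mutated in a syndrome of deafness and dystonia, rose 1.28-fold, from at most 337 to at least 362. The rise of Timm8b was smaller at 1.16-fold (adjusted p = 0.0247). It did not pass after quantile normalization (adjusted p = 0.0537) or when any 1 of control arrays 3 and 5 and low P/S arrays 4 and 5 was left out (0.0548 to 0.0573).

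Timm22, the pore of the carrier translocase, rose 1.12-fold (0.16 ± 0.047, adjusted p = 0.0183), the smallest passing rise among the import genes. Its partner gene Timm29 differed by 0.082 ± 0.056 (adjusted p = 0.295). Timm13, which pairs with the products of the Timm8 genes, differed by 0.12 ± 0.049 (adjusted p = 0.0817), with 4 of 6 low P/S arrays above every control array. Without control array 1 or low P/S array 3 Timm13 passed (adjusted p = 0.0489 and 0.0436). Timm8a2 was too dim to be tested, with intensities of 40.4 to 49.1 over both diets. Chchd4, the oxidoreductase that traps small cysteine-rich proteins in this space, rose 1.26-fold (0.33 ± 0.065, adjusted p = 0.00171), from 226 to 283 on control to 301 to 380 on low P/S arrays, without overlap.

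All 5 TIM23 presequence translocase genes rose, with a median difference of 0.32. The diets separated completely in 0 of the 5, and in 6.86% of all genes tested, so little can be read from that count. Timm17a (probe set 10358050) and Timm23 (probe set 10418804), which form the core of the channel, rose 1.37-fold and 1.36-fold. Timm23 had 785, 906 and 1059 as its lowest, median and highest intensity on control arrays and 978, 1277 and 1464 on low P/S arrays (0.44 ± 0.098, adjusted p = 0.00406). Its low P/S array 3 was the array below the highest control array. Timm17a ranged from 682 to 970 and from 950 to 1373, with 4 low P/S arrays above all control arrays. Timm17b, an alternative to Timm17a on the X chromosome, rose 1.25-fold, and Timm50, a presequence receptor, rose 1.20-fold. Timm21, which links the complex to TOM and to the respiratory chain, rose 1.21-fold (adjusted p = 0.0191), and after quantile normalization its adjusted p was 0.0616, so that it no longer passed.

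The motor that pulls precursors into the matrix had 4 of 5 genes higher, 3 of them without overlap (6.86% of all genes tested). Hspa9 (probe set 10458226), the matrix chaperone at its centre, had a lowest, median and highest intensity of 1581, 1882 and 2050 on control arrays and of 2270, 2379 and 2489 on low P/S arrays. It rose 1.29-fold (0.37 ± 0.062, adjusted p = 0.000619). Grpel1 (probe set 10521461), the nucleotide exchange factor of Hspa9, rose 1.32-fold, from 282, 319 and 347 to 383, 411 and 469 (0.40 ± 0.066, adjusted p = 0.000525). Timm44, which tethers the motor to the channel, rose 1.26-fold, with 376 to 406 on low P/S against 278 to 347 on control arrays.

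Dnajc19 and Pam16 encode a cochaperone and its partner. Dnajc19 rose 1.19-fold, with 5 of 6 low P/S arrays above every control array. Pam16 did not pass (0.098 ± 0.097, 95% interval -0.11 to 0.30, adjusted p = 0.484), and its low P/S arrays ranged from 389 to 574 against 360 to 531. The dimmer Pam16 probe set gave 0.14 ± 0.061 (adjusted p = 0.116).

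In the matrix, the presequence is cut off by the peptidase made from Pmpca and Pmpcb, and many proteins fold inside the chaperonin of Hspd1 and Hspe1. Pmpca rose 1.15-fold (0.21 ± 0.059, adjusted p = 0.0172) and Pmpcb 1.18-fold (0.24 ± 0.059, adjusted p = 0.00793). Hspe1 (probe set 10455588), the lid of the chaperonin, rose 1.39-fold (0.47 ± 0.078, adjusted p = 0.000553). Its lowest, median and highest intensity were 1279, 1487 and 1667 on control and 1804, 2014 and 2413 on low P/S arrays, without overlap. In the probe sets used, this was the largest difference of the import genes, though hardly above that of Tomm5. The dimmer Hspe1 probe set gave 0.36, so the rank depends on the probe set. Hspd1 (probe set 10375240), the barrel, rose 1.32-fold (0.40 ± 0.094, adjusted p = 0.00563), from 1109, 1477 and 1660 to 1644, 1887 and 2238. Of its low P/S arrays only array 2 lay below the highest control array.

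In their brighter probe sets, the levels of Hspd1 and Hspe1 went together from animal to animal, as did those of many import genes. Within the 6 control arrays Pearson's r of their log2 intensities was 0.98 and Spearman's rho 1.0. Within the 6 low P/S arrays r was 0.88 and rho 0.94. On control arrays the dimmer probe sets did not keep this order. That of Hspd1 had 1029 on control array 1, just under its highest control value of 1031. That of Hspe1 had 439 there, its lowest control value. Their correlation was not computed, so the close agreement is shown for the brighter probe sets only. The r of Hspd1 with the 33 other tested import genes had a median of 0.64 on control arrays (-0.29 to 0.98) and of 0.46 on low P/S arrays (-0.51 to 0.88, highest for Dnajc19). With the cytosolic chaperone gene Hsp90aa1 it was 0.89 and 0.51, so that high values in the control arrays were not particular to this pair. These correlations are descriptions over few arrays, and on each array all genes are read from the same RNA sample. RefSeq names 5 pseudogenes after Hspd1 and 6 after Hspe1, and signal from near-identical copies was not separated. The annotation gives the same transcripts for both probe sets of each of these genes and no positions, so which locus the brighter one reads is not known. The same holds for the probe sets of Tomm20. Probe set numbers of the import genes run largely by chromosome. The used Tomm20 number, 10477370, falls between those of Timm10 and Tomm34 on chromosome 2, while Tomm20 lies on chromosome 8. The used numbers of Hspd1, Hspe1, Pam16, Timm8a1 and Tomm22 likewise fall apart from those of genes on their own chromosomes. Whether these probe sets read other copies was not tested. The dimmer probe sets gave a difference of 0.39 ± 0.11 for Hspd1 (adjusted p = 0.0199) and of 0.36 ± 0.073 for Hspe1 (adjusted p = 0.00229).

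In all, 6 import genes had another probe set that named the same symbol. For Hspd1, Hspe1, Timm17a and Timm8a1 both probe sets rose, and for Pam16 and Tomm20 neither passed. Timm17a differed by 0.45 and 0.41 and Timm8a1 by 0.36 and 0.38 in their brighter and dimmer probe sets.

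Proteins of the outer membrane with a barrel shape are inserted from the inside by the SAM complex. Its channel gene Samm50 rose 1.19-fold (0.25 ± 0.066, adjusted p = 0.0115), with 5 of 6 low P/S arrays above every control array. Mtx2, a metaxin on its cytosolic side, rose 1.20-fold (0.26 ± 0.064, adjusted p = 0.00843). The other metaxin gene, Mtx1, differed by 0.10 ± 0.050 (95% interval -0.0058 to 0.21, adjusted p = 0.153), with overlapping ranges of 299 to 331 and of 308 to 372.

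The arrays of a diet were not alike. The mean deviation of the 34 genes from their 12-array mean ran from -0.28 in control array 6 to -0.018 in control array 1, and from 0.051 in low P/S array 3 to 0.26 in low P/S array 4. All control arrays thus lay below all low P/S arrays, an order that the comparison above already holds. The median deviation of all genes tested stayed between -0.043 and 0.03 in the same arrays. Control array 6 was the lowest of the 12 arrays for 22 of the 34 genes, and low P/S array 4 the highest for 21. Without control array 6 still 26 genes rose (median difference 0.23), without low P/S array 4 25 rose (0.25), and without control arrays 1 and 2 27 rose (0.31).

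**Figure D3:**
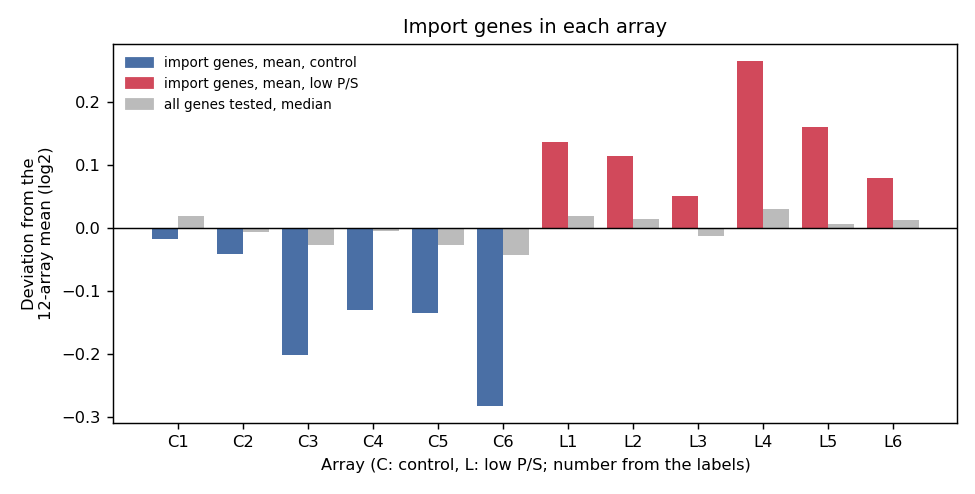
Mean deviation of the 34 import genes from their mean over 12 arrays (coloured bars, log2 intensity) beside the median deviation of all genes tested (grey bars). Control arrays lie between -0.28 and -0.018 and low P/S arrays between 0.051 and 0.26, while the grey bars stay between -0.043 and 0.03.

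Genes of import and sorting outside the rule, and those of the cristae, were also higher in part. Of 19 tested genes of the former list 10 rose and 0 fell (52.6% higher, against 17.8% of all genes tested), with a median difference of 0.17. Dnajc15, a relative of Dnajc19, rose 1.28-fold, and Aifm1, which acts with Chchd4, rose 1.21-fold (0.27 ± 0.063, adjusted p = 0.00543). Dnlz, which keeps Hspa9 soluble, and Bcs1l, an assembly factor of the respiratory chain, both rose 1.15-fold. Of 8 tested genes of MICOS, the complex that shapes the cristae and contacts SAM, and related cristae genes 6 rose (75.0%) and 0 fell. Dnajc11 rose 1.33-fold, Chchd3 1.28-fold, Immt, the core subunit, 1.22-fold and Apool 1.14-fold.

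Mitochondrial chaperones and proteases had 8 of 13 tested genes higher and 0 lower (61.5% higher, against 17.8% of all genes tested). Their median difference was 0.17. Lonp1, the main matrix protease, rose 1.30-fold (0.38 ± 0.068, adjusted p = 0.000972), from 248 to 322 on control to 339 to 406 on low P/S arrays. Dnaja3, a cochaperone of Hspa9, rose 1.28-fold, the prohibitin gene Phb2 1.26-fold and the protease gene Clpp 1.20-fold. Each of these 4, named for their small p from limma, separated the diets completely. So did 5 of the 13 in all, against 6.86% of all genes tested.

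Chaperones of the cytosol, which keep precursors unfolded or fold other proteins, had 11 of 18 tested genes higher and 0 lower. This was 61.1% higher, against 17.8% of all genes tested, and the median difference was 0.25. Hsp90aa1, which delivers precursors to Tomm70a, rose 1.40-fold (0.49 ± 0.10, adjusted p = 0.00274). The cytosolic chaperonin genes Tcp1 and Cct8 rose 1.31-fold and Cct7 1.21-fold.

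Genes often used as a measure of mitochondrial content were mostly below the threshold. Of 9 tested genes 2 rose and 0 fell, and 22.2% higher is near the 17.8% of all genes. Their median difference was 0.13. Cox4i1, a subunit of cytochrome oxidase, rose 1.20-fold (0.26 ± 0.082, adjusted p = 0.0293), and Vdac3, of the outer membrane channel family, 1.16-fold (0.21 ± 0.070, adjusted p = 0.033). Cycs and Sdha differed by 0.25 and 0.13 (adjusted p = 0.0582 and 0.0775). Cox4i1 did not pass after quantile normalization (0.106) or without any 1 of control arrays 3, 5 and 6 and low P/S arrays 2 and 5 (0.0515 to 0.0687). Nor did Vdac3 after quantile normalization (0.0672) or without any 1 of control arrays 3, 5 and 6 and low P/S arrays 1, 4 and 5 (0.0621 to 0.0784). Cycs passed after quantile normalization (0.0491), with the 60th percentile filter (0.0495), array weights (0.0463) or the replicate block (0.00418), without control arrays 1 and 2 together (0.0302) and without any 1 of control arrays 2 and 5 and low P/S arrays 3 and 6 (0.0238 to 0.04), and Sdha without control array 5 (0.0498). Of the 9 genes 8 had a positive difference, as had 55.8% of all genes tested. The citrate synthase gene Cs, named after its value was seen, was the least changed of the 9. It differed by 0.013 ± 0.059 (adjusted p = 0.89), from a geometric mean of 3081 to 3109. The difference between this list and the import genes was not tested.

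Regulators of mitochondrial biogenesis had 6 of 15 tested genes higher, 1 lower and 8 not passing. For all genes tested the shares were 17.8% higher and 7.87% lower, and 1 lower of 15 is near the latter. Ppargc1a, a coactivator that drives biogenesis, fell by 0.77 in log2 intensity (adjusted p = 0.000463, SE 0.12), from 659 to 861 on control to 310 to 580 on low P/S arrays, without overlap. Its relative Ppargc1b rose 1.28-fold (0.35 ± 0.065, adjusted p = 0.00109). Tfb2m and Polrmt, which transcribe the mitochondrial genome, rose 1.42-fold and 1.14-fold.

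Among genes of the stress response that mitochondrial import defects are known to induce, 3 of 8 tested rose and 1 fell, with a median difference of 0.097. The 37.5% higher compares with 17.8% of all genes tested, of which 7.87% were lower. Atf5, a factor linked to the mitochondrial unfolded protein response, rose 1.68-fold (0.75 ± 0.073, adjusted p = 8.13e-06), from 180 to 214 on control to 267 to 391 on low P/S arrays. The asparagine synthetase gene Asns rose 1.65-fold and Atf4, the regulator of this response, 1.23-fold (0.30 ± 0.071, adjusted p = 0.00598). The stress gene Ddit4 fell by 0.29 on the log2 scale (adjusted p = 0.0255), and did not pass without any 1 of control arrays 4 and 6 and low P/S arrays 1, 4 and 5 (0.0548 to 0.0632). The other 4 tested, Ddit3, Chac1, Sesn2 and Trib3, did not pass (differences of 0.12, 0.078, 0.042 and -0.081).

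**Figure D4:**
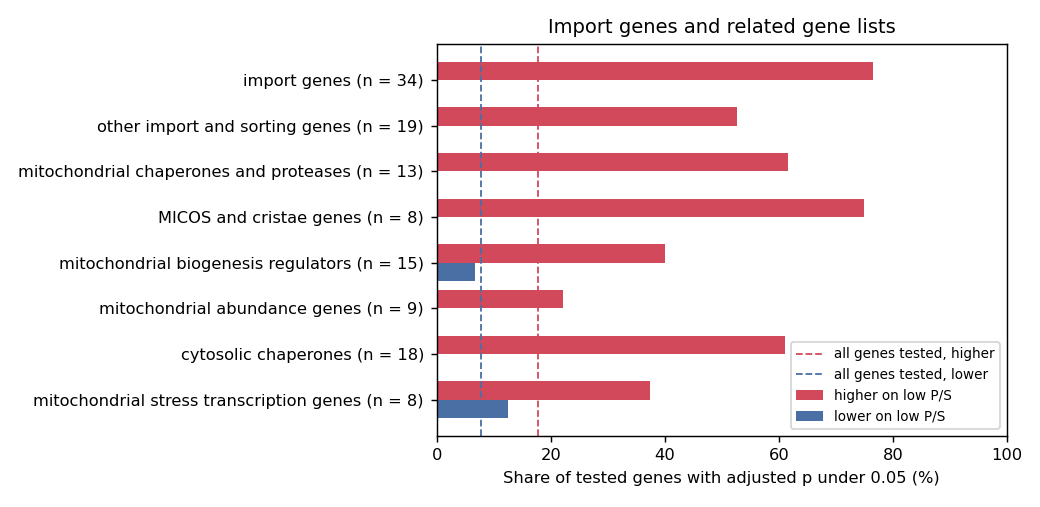
Share of tested genes higher (red) or lower (blue) on the low P/S diet at an adjusted p under 0.05 in the import genes and related lists, with the number tested in brackets and dashed lines at the shares of all genes tested (17.8% higher, 7.87% lower). The import genes reach 76.5% higher, and the mitochondrial abundance genes 22.2%.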

How the data were processed

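Per the labels, 500 ng of total RNA per sample was labelled by the Affymetrix whole-transcript method. The deposited values are intensity values on a linear scale, and the authors' summarization and normalization steps are not stated in the sources used here, so small shifts shared by many genes depend on an unknown scaling.

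Of 34760 probe sets, 21640 named 1 symbol, 1321 several and 11799 none. Timm10b, which shares its probe set with another gene, is therefore no member. The brightest single-symbol probe set per gene by its mean over 12 arrays was used on the log2 scale. Genes under the 40th percentile of mean log2 intensity were dropped, and 11962 remained. The diets were compared with limma 3.58.1 (R 4.3.3, two-sided, no covariate) with Benjamini-Hochberg adjustment over these genes, and the steps were tested on simulated data. Of 50 genes with a planted log2 difference of 0.25, 21 were recovered, and of 50 with 0.5, 43 were. The simulation made 173 calls, 9 of them false, against 3074 calls in the data, so its recovery may not carry over. Values came from Python 3.11.15, and precision is limited by the number of arrays.

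All members are named, and of each related list the 4 tested genes of smallest p, with Cs and the remaining tested stress genes besides. Members and lists were chosen with earlier results of these data known. Alternatives were quantile normalization, median centring, other filters, the mean of probe sets, a trended robust prior, array weights, a replicate block, log2(value + 16) and leaving out arrays.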

Additional observations from a re-analysis of the deposited data

Results flagged for a closer look

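In 3 of 72 groups of 6 arrays, 1 array of an import gene lay far from the others, by its gap to the nearest divided by the whole range in log2. Chance gives about 1 in 20 such groups. Control array 6 was lowest for Pam16 (0.717, at an intensity of 360) and for Timm8a1 (0.635, at 241). Low P/S array 4 was highest for Chchd4 (0.674, at 380). Without these arrays in turn Timm8a1 and Chchd4 still passed and Pam16 still did not.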

How the results depend on the processing

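The count of import genes higher stayed between 24 and 27 over 22 alternatives (25 to 27 with 1 array left out), and the count lower was 0 in each. Of the 26 genes that passed, 24 passed in all 22, the exceptions being Timm21 and Timm8b as given above. Of the other 8, Timm13 passed with array weights, without control array 1 or without low P/S array 3 (lowest adjusted p 0.0436). Tomm22 passed without control array 5 (0.0294), Tomm34 without control arrays 1 and 2 (0.0296) and Tomm40l without low P/S array 6 (0.0445). The Tomm20 difference was -0.0134 after quantile normalization, and with 1 array left out it ran from -0.0115 (without low P/S array 4) to 0.1257; the cause was not tested. Over all genes, quantile normalization gave 1773 higher and 1543 lower, and leaving out 1 array gave 1612 to 2355 higher and 788 to 1049 lower. Leaving out control arrays 1 and 2, an alternative chosen after seeing the data, gave 2718 higher and 1134 lower. The median difference of all genes moved from 0.022 to -0.005 after quantile normalization and to 0.047 after median centring. That of the import genes moved from 0.26 to 0.19 and to 0.28. Whether arrays with the same number in both diets were paired was not settled. The correlation of their deviations ran from -0.11 to 0.42 and exceeded 0.1 for 3 of 6 numbers, and 2 of 6 arrays correlated best with their own number. With a replicate block 26 import genes were higher and 0 lower, and over all genes 2454 and 1076, against 2132 and 942 without it. Changes under about 0.1 lie close to the standard errors here, whose median for import genes was 0.065.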
